A study of Mus musculus with 8 samples.

Results

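Developing mouse adipose tissue at e15.5 and P0 was compared with that at e18.5 and P2 by the genes that set the first pair of pools apart from the second. Gene expression in this study was followed in C57BL/6 mice at 8 stages from e15.5 to P12, with 1 pool of RNA on 1 Illumina MouseRef-8 BeadChip per stage, and these 4 arrays form 2 pools a side. The labels call the tissue developing adipose tissue or developing white adipose tissue, give pools of at least 3 embryos in one place and of 4 in another, and name no depot, sex, treatment or mutation. A gene was taken as a member where its e15.5 and P0 values both lay 1 log2 or more above, or both 1 log2 or more below, its e18.5 and P2 values. Genes had to reach 7.5 on 2 or more of the 4 arrays to be considered. Of 18312 genes and unnamed probes, 6868 reached that minimum and 94 were members, 87 of them higher in the e15.5 and P0 pools (1.27% of those kept) and 7 lower (0.102%). In the text below a value is the deposited log2 intensity, separation means the distance between the nearest values of the sides, and an array is called near the floor for a gene where its value is under 7.5.

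The pairing of these pools was drawn from the muscle and skin signal of the same arrays, and the members were chosen by their values on them. Separations and counts of members are therefore descriptions. No stage had a replicate, the pools of a side are different ages, and an exact two-sided permutation test of 2 against 2 could not give a p below 0.333, so no test was made and no spread between replicates can be given. A low value in bulk RNA can mean fewer cells of a type or less RNA per cell, and these cannot be told apart. All 8 arrays have the same distribution of values, so a level is relative to the rest of its array. Of the 100 brightest genes 12 were members at e15.5, 7 at P0 and 0 at e18.5 and P2.

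Skeletal muscle fibres contract through sarcomeres, in which myosin thick filaments pull on thin filaments of actin, tropomyosin and troponin, and calcium released from the sarcoplasmic reticulum switches the pull on. Fibres use successive forms of these proteins, embryonic and neonatal ones first and adult fast or slow ones later. The epidermis renews itself from basal keratinocytes that make the keratins Krt5 and Krt14. Their daughters move up, change to Krt1 and Krt10, and end as dead cells sealed by a cornified envelope of cross-linked proteins such as loricrin. This barrier is laid down late in mouse gestation. White adipose tissue itself is made of adipocytes that store triglyceride, with stromal, vascular and immune cells between them.

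The promoters of 3 muscle and 3 epidermal members are shown because genes of these 2 tissues make up most of the members and were apart together. Each is the 250 bases before the annotated start in RefSeq's GRCm38.p6 annotation, printed along the strand of the gene. They are the members of each tissue with the largest separations whose window holds the motif marked. In the muscle genes, capitals mark CAGCTG, an E-box of the kind that myogenic factors such as MyoD bind.
Mylpf, chr7:127211358-127211607, + strand: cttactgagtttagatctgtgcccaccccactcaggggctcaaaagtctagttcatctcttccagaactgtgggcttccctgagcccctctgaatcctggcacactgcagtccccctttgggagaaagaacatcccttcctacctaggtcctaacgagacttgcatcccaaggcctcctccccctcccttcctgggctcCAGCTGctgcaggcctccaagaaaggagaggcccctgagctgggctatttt
Atp2a1, chr7:126463074-126463323, - strand: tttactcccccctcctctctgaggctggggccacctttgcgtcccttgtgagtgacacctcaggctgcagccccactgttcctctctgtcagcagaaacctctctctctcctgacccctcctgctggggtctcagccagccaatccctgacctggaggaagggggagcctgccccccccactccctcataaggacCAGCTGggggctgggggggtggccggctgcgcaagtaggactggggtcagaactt
Acta1, chr8:123894776-123895025, - strand: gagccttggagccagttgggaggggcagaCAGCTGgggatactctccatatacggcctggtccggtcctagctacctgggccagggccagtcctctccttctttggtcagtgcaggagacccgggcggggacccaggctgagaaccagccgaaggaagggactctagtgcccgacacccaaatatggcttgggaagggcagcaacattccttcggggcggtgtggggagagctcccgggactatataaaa

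In the epidermal genes, capitals mark TATAAA, the TATA box, which places the start of transcription in many tissue-specific genes.
Ly6g6c, chr17:35067075-35067324, + strand: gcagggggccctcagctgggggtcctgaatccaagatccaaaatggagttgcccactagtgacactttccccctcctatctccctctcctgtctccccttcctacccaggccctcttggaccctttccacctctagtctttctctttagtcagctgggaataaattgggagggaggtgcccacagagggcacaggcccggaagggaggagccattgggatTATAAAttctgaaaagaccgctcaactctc
Krtdap, chr7:30787655-30787904, + strand: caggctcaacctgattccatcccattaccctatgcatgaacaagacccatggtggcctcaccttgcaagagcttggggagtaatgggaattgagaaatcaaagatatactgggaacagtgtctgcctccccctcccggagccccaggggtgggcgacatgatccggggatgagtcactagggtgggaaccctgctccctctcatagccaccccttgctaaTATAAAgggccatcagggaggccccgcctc
Lor, chr3:92083143-92083392, - strand: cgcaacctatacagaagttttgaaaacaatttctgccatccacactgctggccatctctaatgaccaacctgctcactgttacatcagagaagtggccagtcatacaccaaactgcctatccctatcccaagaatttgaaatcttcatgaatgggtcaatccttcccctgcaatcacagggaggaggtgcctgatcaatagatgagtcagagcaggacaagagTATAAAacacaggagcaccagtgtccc

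A promoter entry was found for 35 of the 43 muscle members and 19 of the 24 epidermal members. CAGCTG lay in 17 of the 35 muscle windows and 4 of the 19 epidermal ones, against 16.1% of all 27025 promoters and 14.8% of those of genes kept. TATAAA lay in 8 of the 19 epidermal windows and 6 of the 35 muscle ones, against 14.2% of all and 7.58% of those of genes kept. In the printed epidermal windows it began 30 bases before the start in Ly6g6c and Krtdap and 27 before it in Lor. The printed Acta1 window also holds TATAAA and that of Ly6g6c also holds CAGCTG, both left unmarked. The AP-1 motif TGANTCA lay in 5 epidermal and 3 muscle windows (7.93% of all promoters and 5.02% of those of genes kept), the MEF2 motif in 2 and 4 (3.7% and 2.94%), and the CArG box in 0 and 4 (1.57% and 1.4%). The M-CAT motif CATTCC lay in 3 and 8 (14.6% and 12.2%), the AP-2 motif GCCNNNGGC in 2 and 9 (4461 of 27025 and 1318 of 5201), and the GC box GGGCGG in 5 and 12 (35.9% and 66.1%). The general E-box CANNTG, of which CAGCTG is one form, lay in 14 and 33 (72.1% and 63%), and the motif of paired p63 half-sites in 0 and 0 (0.514% and 0.192%). Searches covered both strands of the whole window, from 250 bases before to 50 after the start. A match is a description of letters, not a binding site.

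Sets of defining markers were read on the same 4 arrays. The pools were paired by muscle and skin signal, so higher muscle and epidermal markers were built in and do not check the label. Markers could also reach the minimum on the e15.5 and P0 arrays alone. Of 23 skeletal muscle markers on the array 15 were higher members, and the 16 that reached the minimum averaged 12.81 at e15.5 and 11.38 at P0 but 7.67 at e18.5 and 8.35 at P2. Myh1, Myh4, Myh7 and Pax7 were under 7.5 on all 8 arrays. Of 17 epidermal markers 8 were higher members, and the 10 that reached the minimum averaged 11.85 and 10.67 against 7.58 and 8.80. Dsc1, Dsg1a, Krt2 and Perp were under 7.5 on all 8 arrays. Neither neighbour pool was free of these signals: Tnnc2 was 8.83 at e18.5 and 9.27 at P2, and Krt14 8.79 and 10.50. Markers of other cell types gave no member, with 11 adipocyte, 5 lymphocyte, 3 macrophage, 5 mast cell, 5 endothelial, 6 smooth muscle, 6 cartilage and bone, 3 nerve, 3 erythroid, 6 glandular and 4 liver markers on the array. None of the 6 cartilage and bone markers reached the minimum. The tissue named on the labels was not equally marked on the 4 arrays: the 9 adipocyte markers that reached the minimum averaged 7.43 at e15.5, 10.47 at P0, 10.32 at e18.5 and 11.09 at P2. Fabp4 and Pck1 were under 7.5 on all 8. Detection values were not used, so a marker under 7.5 on all 8 arrays is not shown to be absent.

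Sorted by tissue, 43 of the 87 higher members are skeletal muscle genes and 24 are genes of the epidermis and hair follicle, together 77.0%. Of all 6868 genes kept, 73 were on the muscle lists and 61 on the epidermal lists. The pools were paired by the signal of these 2 tissues, so the share is a description. One member each comes from the erythroid list (Sptb) and the glandular list (Krt23), and 14 named genes and 4 unnamed probes are in no list. Of the 33 lists 21 gave no higher member, among them those of adipocytes, fibroblast matrix, endothelium, macrophages, mast cells, proliferation and ribosomal proteins.

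**Figure D1:**
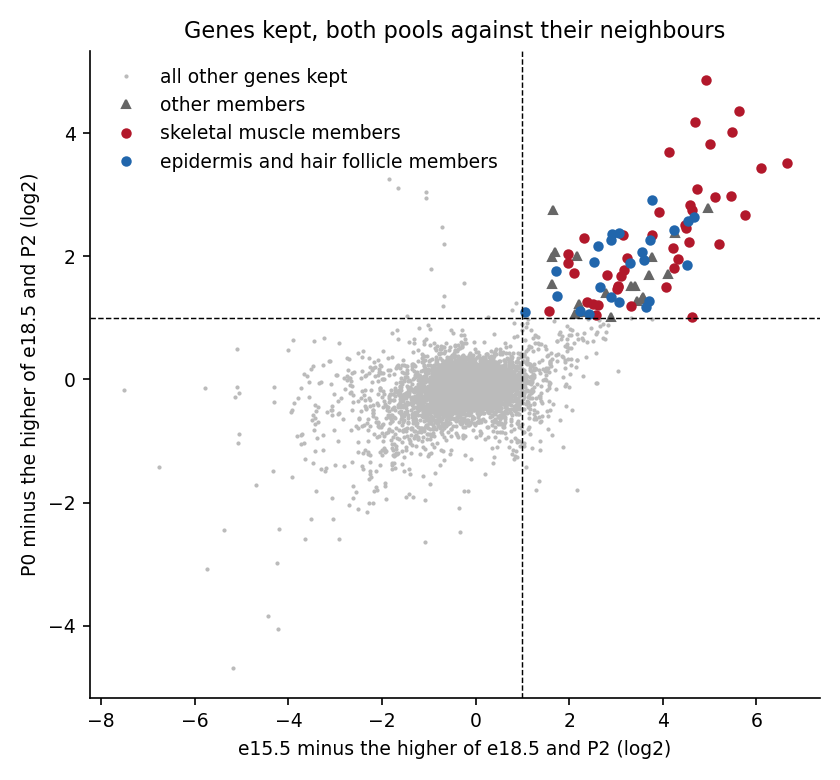
Each point is 1 of the 6868 genes kept, with the e15.5 value (horizontal) and the P0 value (vertical) given as log2 distance above the higher of its e18.5 and P2 values. Dashed lines mark 1 log2. Red and blue points, the 43 muscle and 24 epidermal members, fill most of the upper right corner, and few genes lie above the line at P0 and left of it at e15.5.

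The 2 widest separations were those of thick filament genes. Myh8, the neonatal or perinatal myosin heavy chain, was 14.93 at e15.5 and 14.87 at P0 but 7.63 at e18.5 and 10.01 at P2. Its separation of 4.86, at least 29.0-fold on the log2 scale between any pool of one side and any of the other, was the largest of all genes kept. A second Myh8 probe gave 13.07, 12.06, 7.13 and 7.74 in the same order. Of the other myosin heavy chains on the array, Myh1, Myh4 and Myh7 did not reach the minimum, and Myh3, the embryonic form, is not analysed here. All 6 kept genes of the light chain and myosin-binding list were members. Mylpf, the fast regulatory light chain, was 14.62 and 13.34 against 7.25 and 8.98. Myl1, a fast essential light chain, was 14.66 and 14.57 against 11.09 and 12.68, so the probe taken was bright on all 4 arrays and its separation was 1.89. A second Myl1 probe was 10.17 and 8.80 against 7.08 and 7.32, near the floor at e18.5 and P2. The light chains of slow muscle and heart, Myl2 and Myl3, and Myl4, of embryonic muscle and atrium, had separations of 2.34, 2.22 and 1.96, and Mybpc1, a myosin-binding protein, 2.75.

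In the thin filament list 8 of the 13 kept genes were members. The fast troponin genes Tnnc2 and Tnni2, which encode the calcium sensor and the inhibitory subunit, had separations of 4.02 and 3.82. Tnnc2 was 14.76 at e15.5 and 13.29 at P0 but 8.83 at e18.5 and 9.27 at P2. Acta1, skeletal alpha-actin, was 14.40 and 13.96 against 8.10 and 10.27. Actc1, the alpha-actin of heart and of embryonic skeletal muscle, was 14.12 and 11.00 against 7.48 and 7.11. The e15.5 pool was the highest of the 4 for each of these. Tnnt3, Tnnc1, Tnnt1 and Tmod4 completed the group, with separations of 1.77 to 2.72. The 3 tropomyosin genes Tpm1, Tpm2 and Tpm3 were no members, but the probes of Tpm2 disagreed. A second Tpm2 probe was 13.11, 11.83, 6.90 and 7.93 in the order e15.5, P0, e18.5 and P2, whereas the brighter probe taken for the gene was 9.52, 8.99, 9.26 and 9.05. Nrap and Pdlim5 likewise met the rule on another probe only, with separations of 1.43 and 1.08.

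Of the Z-disc and M-band genes 10 of 15 kept were members. Actn2, which cross-links actin at the Z-disc, was 12.89 and 10.42 against 6.89 and 7.43. Ttn, the giant spring protein titin, was 12.38 and 10.23 against 6.99 and 7.27. For these genes, as for 24 of the 43 muscle members, both neighbours were near the floor, so that their separations of 2.99 and 2.95 are measured against the floor. The other 8 were Myoz2, Tcap, Csrp3, Pdlim3, Des, Myom1, Myoz1 and Cavin4, with separations of 1.05 to 1.98. Des, the muscle intermediate filament desmin, is also made by smooth muscle, and stood between 8.07 and 8.45 on the 6 arrays other than e15.5 (11.33) and P0 (9.90).

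Calcium handling and excitation gave 7 members of 11 kept. Atp2a1, the calcium pump of fast fibres, was 12.72 and 12.21 against 7.15 and 8.03, a separation of 4.19. Sln, sarcolipin, which restrains that pump, was 13.61 and 10.94 against 6.90 and 7.51. The acetylcholine receptor subunits Chrna1 and Chrng, the calcium channel subunit Cacng1, the release channel Ryr1 and the calcium-binding Hrc had separations of 1.02 to 1.52. Chrng, the gamma subunit of the fetal receptor at the nerve-muscle junction, was 11.54 at e15.5 and 7.93 at P0, against 6.91 and 6.89. Chrne, the subunit that takes its place in the adult, was under 7.5 on the 4 arrays (6.95 to 7.02).

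Among genes of muscle energy metabolism 9 of 14 kept were higher members and 1, Cox7a1, was a lower one. Cox6a2, a muscle form of a respiratory chain subunit, was 12.53 and 10.88 against 6.94 and 7.80. Ckm, muscle creatine kinase, was 11.62 and 9.87 against 6.86 and 7.03. Eno3 and Pgam2, muscle forms of glycolytic enzymes, had separations of 2.51 and 2.47, and Ampd1, AMP deaminase, 2.14. Fabp3, Adssl1, Ckmt2 and Pfkm were the rest. Several genes of this list are also made by adipocytes, in particular Gpd1 and, in brown fat, Cox8b and Cox7a1. Gpd1 was 7.15 at e15.5, 9.87 at P0, 10.44 at e18.5 and 10.59 at P2, and Cox8b was 10.50, 12.02, 12.47 and 11.61.

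Among regulators of muscle and genes of satellite cells 2 of 13 kept were members. Sypl2, a protein of the triad membrane, had a separation of 2.34, and Ky, needed for muscle upkeep, was 11.12 and 8.55 against 6.99 and 7.06. Most of the list did not reach the minimum. Myog, a master factor of muscle differentiation, was 8.58 at e15.5 and 7.08, 6.90 and 6.87 at P0, e18.5 and P2. Myod1 was 6.82 to 6.92 at P0, e18.5 and P2 and did not reach the minimum on 2 arrays, and Pax7, of satellite cells, 6.77 to 6.87. Mef2c, a partner of the myogenic factors, was 11.29 and 9.99 against 8.90 and 9.33, a separation of 0.66. In all 141 muscle-list genes were on the array, 68 did not reach the minimum, 43 were higher members, 1 was lower and the other 29 met the rule in neither direction. Of the 73 kept, 58 had e15.5 and P0 both above both neighbours by any amount, beside 1088 of the 6868 genes kept. Since a gene could pass the minimum on the e15.5 and P0 arrays alone, these counts are not shares of all muscle genes.

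Epidermal members came from the basal, suprabasal and cornified layers. Of 17 kept basal genes 4 were members. Krt14 was 13.56 at e15.5 and 12.89 at P0 but 8.79 at e18.5 and 10.50 at P2. Its partner Krt5 was 8.76 and 8.38 against 6.87 and 7.02. Krt17 and Col17a1, a collagen of the hemidesmosome, had separations of 1.71 and 1.10. Trp63, the transcription factor p63 that basal keratinocytes depend on, was 10.04 and 8.92 against 8.30 and 8.04, a separation of 0.63. Krt15, another basal keratin, missed the rule narrowly: it was 11.05 and 8.25 against 6.90 and 7.27, a separation of 0.98.

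The suprabasal list gave 13 members of 21 kept. Krt10 was 14.69 and 14.05 against 8.67 and 11.79. Its partner Krt1 was 10.00 and 9.38 against 6.89 and 7.47. Both keratins were higher at P2 than at e18.5, by 3.12 for Krt10. Dmkn and Krtdap, secreted proteins of differentiating keratinocytes, had separations of 2.64 and 2.43, Ly6g6c 2.58 and Lypd3 2.26. Ppl and Pkp1, proteins of the cornified envelope and the desmosome, had 1.28 and 1.07. Krt8, a keratin of simple epithelia, was 8.02 at P0, under its e18.5 and P2 values of 8.12 and 8.46, and was no member.

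Of 21 kept cornified envelope and barrier genes 7 were members. Lor, loricrin, was 14.11 and 13.55 against 7.22 and 11.18. Calm4, a calmodulin-like protein of the epidermis, was 12.37 and 11.52 against 6.77 and 8.60, the widest separation among the epidermal genes at 2.92. Casp14, Asprv1 and Hrnr, which take part in filaggrin processing or belong to its family, had separations of 2.16, 2.06 and 1.87, and Elovl4, which lengthens barrier lipids, 1.33. The late cornified envelope genes did not follow. Lce1c was 7.04 at e15.5 and 12.16 at P0 but 7.15 at e18.5 and 8.90 at P2, and it was 10.51 at e16.5. Lce1b, Lce1d and Lce1m were likewise at 6.79 to 6.89 at e15.5 and at 10.79 to 11.66 at P0. These genes lie in a family of similar copies, so their probes may share signal. Corneodesmosin, Cdsn, which joins cornified cells, was 7.62 at e15.5 and 9.44 at P0, and Flg2, a filaggrin relative that did not reach the minimum on 2 arrays, 6.96 and 9.12. The e15.5 and P0 pools thus had the keratins and loricrin in common but not these genes.

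Of the 2 kept hair follicle genes neither was a member. One hair gene was high in a single pool: Krtap13, a hair shaft protein, was 11.41 at e15.5 and 6.81, 6.78 and 6.79 at P0, e18.5 and P2. In all 213 genes of the epidermal lists were on the array, 152 did not reach the minimum, 24 were higher members and 37 were not.

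**Figure D2:**
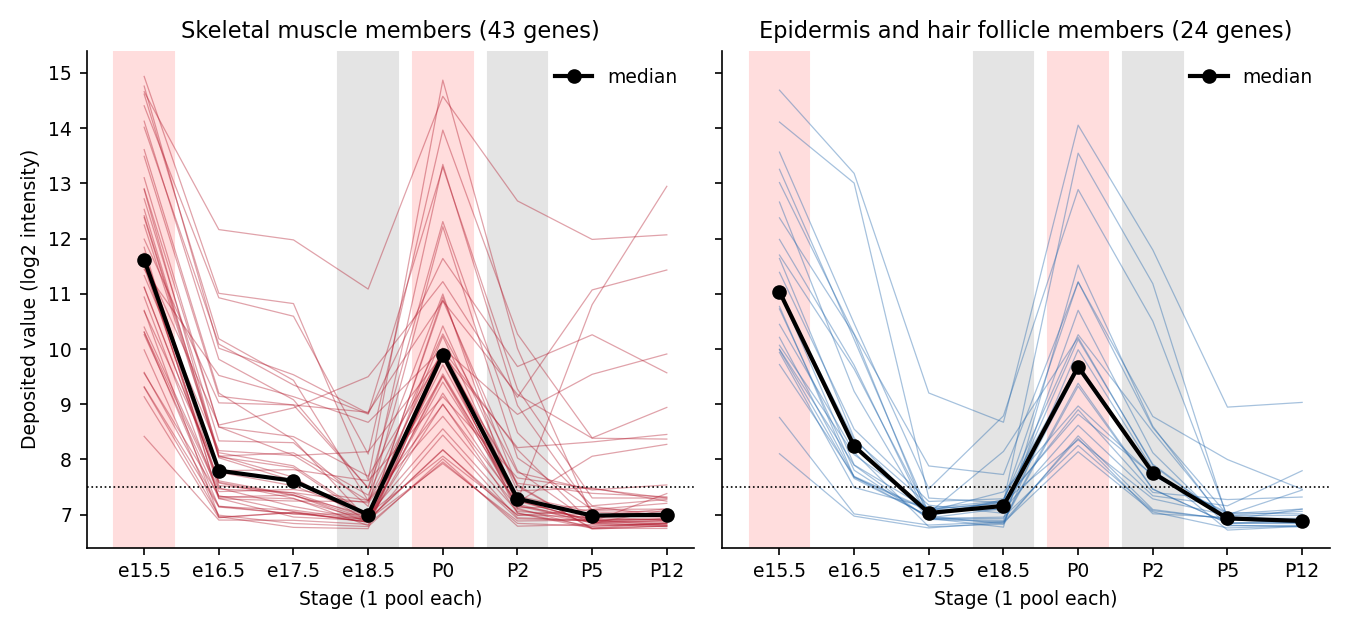
Deposited log2 values of the 43 muscle members (left) and 24 epidermal members (right) at the 8 stages, 1 thin line per gene, with the median in black. Pink bands mark e15.5 and P0, grey bands e18.5 and P2, and the dotted line 7.5. The medians at e15.5 and P0 were 11.62 and 9.90 for muscle and 11.04 and 9.68 for epidermis, those at P2 7.29 and 7.76, and the epidermal median was 8.24 at e16.5 and 7.03 at e17.5.

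The e15.5 and P0 pools were not equal in either tissue. Of the 43 muscle members 42 were higher at e15.5 than at P0 (50.7% of genes kept were), 34 of them by 1 log2 or more (background 6.6%), and 0 were lower by that much. The median difference was 1.52, and it ranged from -0.06 for Tcap to 3.61 for Chrng. Forms of embryonic, slow or cardiac muscle were among the largest. Actc1 differed by 3.13, Tnnc1, the slow and cardiac calcium sensor, by 3.10, Tnnt1, the slow tropomyosin-binding subunit, by 3.00, and Myl3 by 2.33. Sln, Ky, Actn2 and Csrp3, with 2.67, 2.57, 2.47 and 2.42, lay above Myl3. The fast troponins Tnnc2 and Tnnt3 differed by 1.47 and 1.21, less than the slow forms Tnnc1 and Tnnt1. The regulatory light chains went the other way, with 0.82 for Myl2 of slow muscle and heart and 1.27 for the fast Mylpf. Myh8, Myl1 and Fabp3 differed by 0.07, 0.08 and 0.01, and Myh8 and Myl1 lay near the top of the scale of these arrays in both pools. On their second probes Myh8 was 13.07 at e15.5 and 12.06 at P0, and Myl1 10.17 and 8.80. These examples were chosen after their values were seen. Of the 24 epidermal members 22 were higher at e15.5, 15 by 1 log2 or more, with a median of 1.38 and a largest difference of 2.66 for Hrnr.

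The e18.5 and P2 pools also differed. Of the 24 epidermal members 23 were higher at P2 than at e18.5 (51.4% of genes kept were), 8 of them by 1 log2 or more (background 1.06%), led by Lor with 3.97 and Krt10, and 0 were lower by that much (1.62%). Of the muscle members 37 of 43 were higher at P2, 5 by 1 log2 or more, the largest being Myh8 with 2.38 and Acta1 with 2.17. At e18.5 11 of the 43 muscle members and 4 of the 24 epidermal members reached 7.5, and at P2 19 and 15 did. Of all 6868 genes kept 6513 and 6528 did. Members had to lie 1 log2 or more lower on these 2 arrays, so low counts here follow in part from the rule.

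The rule did not use the other 4 arrays, although the pools and lists were chosen with results of the whole series known. At e16.5 and e17.5, epidermal and muscle members parted. All 24 epidermal members were higher at e16.5 than at e17.5 (56.7% of genes kept were), 13 of them by 1 log2 or more, or 54.2%, against 0.612% of the 6868 genes kept. The median difference was 1.25, and Lor had the largest, 13.00 against 7.30. Of the 43 muscle members 36 were higher at e16.5 and 0 by 1 log2 or more, with a median of 0.19. Acta1 was 10.93 at e16.5 and 10.59 at e17.5, and Myh8 11.01 and 10.82. Of the 42 kept genes that were 1 log2 or more higher at e16.5 than at e17.5, 20 were higher members, and 18 were epidermal list genes, the latter with Lce1b, Lce1c, Lce1d, Lce1m and Stfa1 beside the 13 members. The 42 also held 4 liver genes and 2 erythroid genes and 0 muscle genes. With 1 pool per stage, no test of these counts is given.

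**Figure D3:**
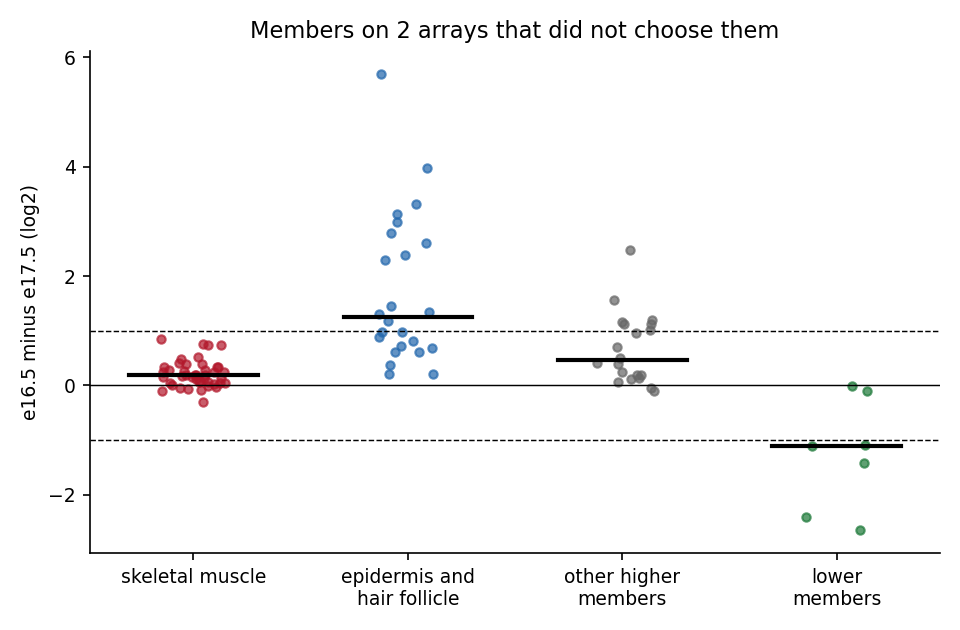
The difference between e16.5 and e17.5 (log2) for each member, on arrays that took no part in the choice, with medians as black bars and dashed lines at 1 and -1. Epidermal members all lie above 0 with a median of 1.25, muscle members lie near 0 with a median of 0.19, and the 7 lower members all lie below 0.

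At P5 and P12 most members were near the floor, with 15 and 17 of the 87 at 7.5 or more, beside 6281 and 6202 of the 6868 genes kept. On both the e18.5 and P2 arrays 44 of the 87 were already under 7.5 (142 of the 6868). These had passed the minimum on the e15.5 and P0 arrays alone. The difference between the 2 arrays was 1 log2 or more in 3 members, Fabp3, Gpc1 and Gpx3, all higher at P12 (background 1.08%, and 0.801% the other way). Of the 87, 5 were 1 log2 or more higher at P5 or P12 than on both the e18.5 and P2 arrays (background 2.15%), 4 of them from the muscle lists. Fabp3, a fatty acid-binding protein of muscle, heart and brown fat, was 9.56 at e15.5 and 9.55 at P0 but 10.80 at P5 and 12.95 at P12. Adssl1, an enzyme of the purine nucleotide cycle in muscle, was 11.60 and 11.22 and then 11.07 and 11.43. Tmod4, a thin filament capping protein, and Pfkm, the muscle form of phosphofructokinase, were at 8.27 and 9.91 at P12. Outside the lists Gpx3, a secreted glutathione peroxidase, was 10.87 and 11.23 against 8.62 and 9.24, and 12.40 at P12. On these late arrays Myh8 and Krt14 were at 6.89 to 6.99, near the floor.

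**Figure D4:**
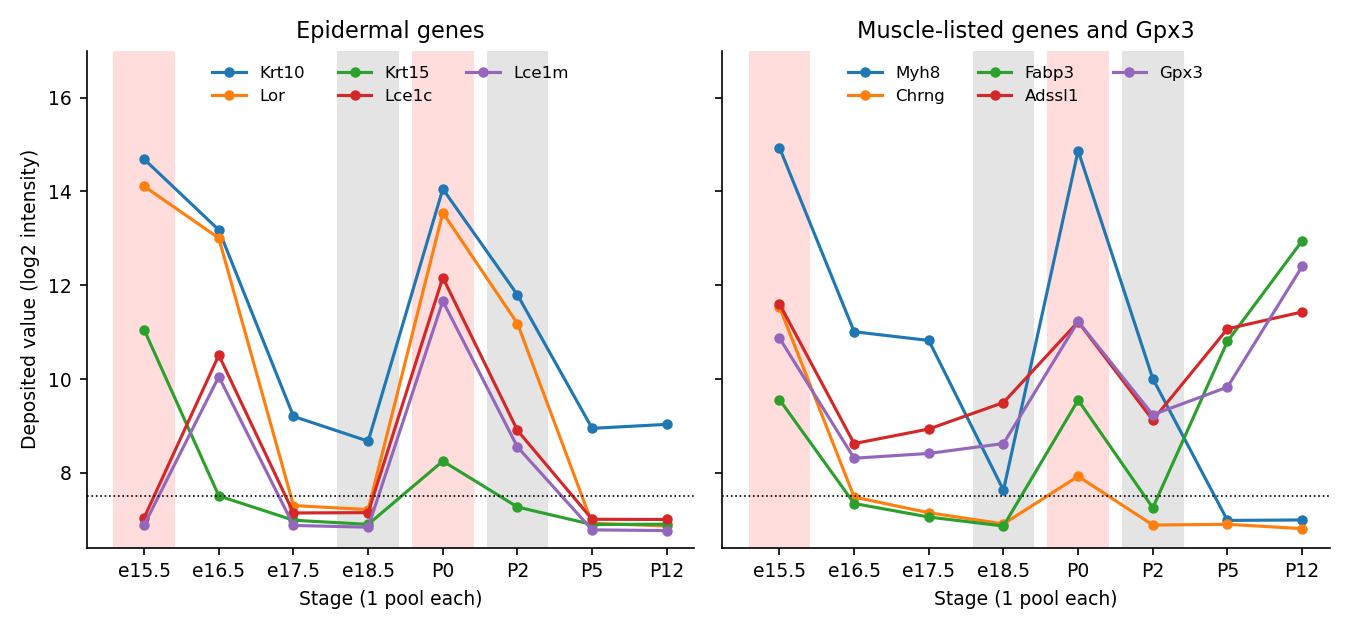
Deposited log2 values at the 8 stages for selected epidermal genes (left) and for muscle-listed genes with Gpx3 (right), with bands and dotted line as for the members by stage. Lce1c and Lce1m are low at e15.5 and high at e16.5 and P0, Krt15 is highest at e15.5, and Fabp3, Adssl1 and Gpx3 are high again at P5 and P12 where Myh8 and Chrng are near the floor.

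The members in no list include further muscle genes. Atp1b4, a protein of perinatal muscle nuclei related to sodium pump subunits, was 11.31 and 9.41 against 6.89 and 7.04. Trim72, which helps to reseal torn muscle membranes, had a separation of 1.99, Itgb1bp2, known as melusin and made in striated muscle, 1.34, and Srpk3, a kinase of muscle, 1.27. None of these 4 differed between e16.5 and e17.5 by 1 log2. Fam25c, Them5, Psapl1 and Gm94 did, being at 7.95, 8.03, 7.96 and 7.96 at e16.5 and 6.80 to 6.93 at e17.5, as did 2 of the 4 unnamed probes. Tceal5, Igsf1, Tuft1, Ckmt1, a mitochondrial creatine kinase, and Gpc1, a cell-surface proteoglycan, had separations of 1.02 to 1.51. Krt23 was 9.45 and 9.37 against 7.77 and 7.81, and 8.53 at e16.5. Sptb, a spectrin of red cells that muscle makes too, was 9.37 and 8.22 against 7.10 and 7.13, and none of the other 6 kept erythroid genes was a member.

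The lower side was short. Of its 7 members 5 are named genes. Insig1, which holds the regulators of cholesterol synthesis in the endoplasmic reticulum, was 7.33 at e15.5 and 7.51 at P0 but 9.52 at e18.5 and 9.05 at P2, a separation of 1.53. Of the 13 kept cholesterol genes it was the one member, and 10 of the 13 were lower at P0 than on both neighbours by any amount, as were 32.9% of all genes kept. The e15.5 pool did not share this: 3 of the 13 were below both neighbours and 7 above both, beside 2900 and 2909 of the 6868 genes kept. Col15a1, a basement membrane collagen of fat, muscle and vessels, was 9.11 and 9.49 against 10.71 and 10.85, and 10.90 and 10.91 at e16.5 and e17.5. Gbp2, an interferon-induced GTPase, Gpt, alanine aminotransferase, and Cox7a1, a respiratory chain subunit of heart, muscle and brown fat, had separations of 1.20, 1.05 and 1.05. Cox7a1 was 8.18 and 9.22 against 11.82 and 10.28, and 13.44 at P12. All 7 were lower at e15.5 than at P0 (49.3% of genes kept were), 4 of them by 1 log2 or more (background 7.31%). All 7 were also lower at e16.5 than at e17.5 (43.1%), 5 of them by 1 log2 or more (2.4%), and Col15a1 by 0.01.

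**Figure D5:**
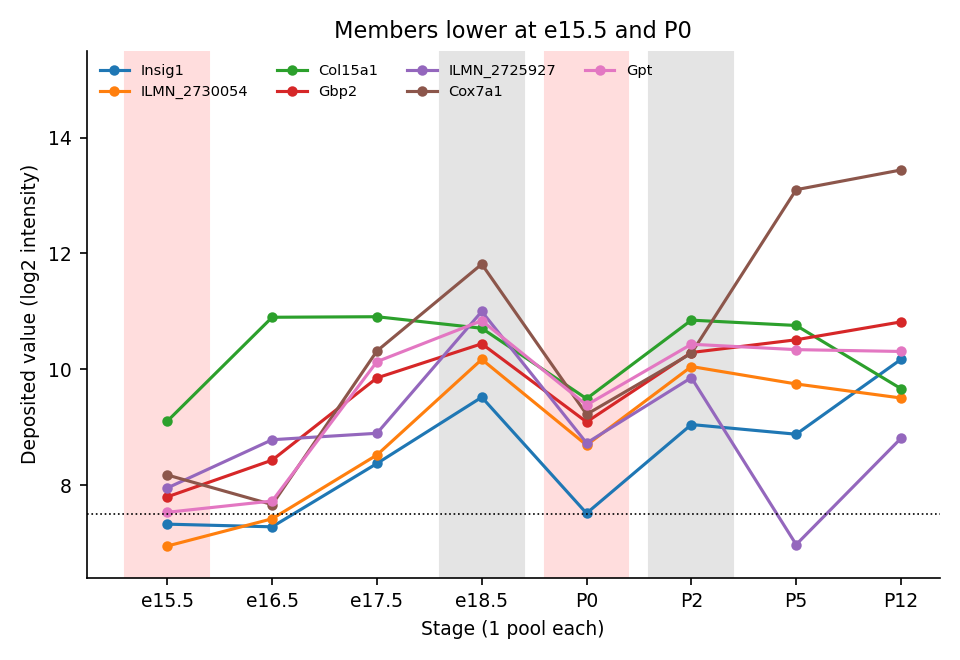
Deposited log2 values at the 8 stages of the 7 members that were lower at e15.5 and P0 (pink bands) than at e18.5 and P2 (grey bands), named as in the legend, with unnamed probes by their identifier. Col15a1 dips at e15.5 and P0 alone among the first 6 stages, whereas Cox7a1 is also low at e16.5 and is highest at P5 and P12.

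Adipocyte genes gave 0 members in either direction among 106 kept, and their values at e15.5 and P0 were unlike. Of the 106, 73 were 1 log2 or more below both neighbours at e15.5 (background 5.81%), but 1 was at P0 (0.218%). Adipoq, adiponectin, was 8.43 at e15.5 and 13.40 at P0 but 13.50 at e18.5 and 13.52 at P2. Pparg, the central factor of fat cell differentiation, was 9.09 and 11.28 against 12.11 and 11.93. Scd1, a fatty acid desaturase, was 8.07 and 10.99 against 13.44 and 11.40. Of the 16 kept lipogenesis genes 14 were lower at P0 than on both neighbours by any amount, against 32.9% of all genes kept. The fatty acid oxidation list went the other way at P0, with 6 of 22 kept genes below both neighbours and 13 above both. Over all 106 adipocyte genes 50 were below both at P0 and 25 above both, beside 2259 and 2138 of the 6868 genes kept. The median difference between the means of the sides was -0.93 over the 106 genes and -0.0045 over all genes kept. It was 2.15 over the 73 kept muscle genes and 1.53 over the 61 kept epidermal genes. These last 2 medians are raised by selection, since the pools were paired by this signal and genes could pass the minimum on the e15.5 and P0 arrays alone. The proliferation list had 24 of 27 kept genes lower at P0 than on both neighbours by any amount, again beside 32.9% of all, with 0 members. At e15.5 it went the other way: all 27 lay above both neighbours, beside 2909 of the 6868 genes kept. The muscle and epidermal markers given above were high on the same e15.5 and P0 arrays. Their part in the lower adipocyte values at e15.5, or in the lower P0 values of the lipogenesis and proliferation genes, was not tested.

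Each pool was also set alone against both neighbours, so these comparisons share the e18.5 and P2 arrays. The P0 pool was 1 log2 or more above e18.5 and P2 in 101 genes (1.47%), of which 87 were the members, and below them in 15 (0.218%). The e15.5 pool was above them in 335 genes (4.88%) and below in 399 (5.81%). Among the 14 genes that were higher at P0 and no members, 5 were epidermal, Cdsn with the Lce1 genes above, and Actn3, a fast fibre form of alpha-actinin, was from the muscle lists. The others included Cyp2e1, a cytochrome P450 on the adipocyte lists, at 11.20 against 9.41 and 7.40. Also among them were Slc40a1, the iron exporter ferroportin, at 12.23 against 10.64 and 11.04, and Rpl3l, a ribosomal protein of striated muscle, at 8.55 against 7.42 and 7.26. The last of these was 8.20 at e15.5, also above both neighbours.

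At the limit of the rule, the named genes just inside were Chrng (1.02) and Gpc1 (1.02) on the higher side and Gpt (1.05) and Cox7a1 (1.05) on the lower. Those just outside were Rbfox1 (0.99) and Fbp2 (0.98), and Rsad2 (0.93) and Angptl8 (0.92). Where members had further probes the signal mostly went the same way. Of 25 higher members with another probe, 37 probes in all, 22 reached the minimum and 17 of these met the rule.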

How the data were processed

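The authors deposited a table of processed log2 intensities for 25697 probes, with 1 column per stage. Per the labels' protocols, amplified biotin-labelled RNA was hybridized to Illumina MouseRef-8 BeadChips and extracted in BeadStudio. Base 2 is inferred from the range of 6.66 to 15.10. The sorted columns were equal to within 0.005, and how they were normalized and background-corrected is not stated in the labels. A second table, with 16 per-sample columns that carry chip positions matching no label, was not used, so detection values are not given. The number of arrays, 1 per stage, limits the precision, as does the floor for dim genes.

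Probes were named from the platform annotation: 23978 had 1 gene symbol, 0 several and 1719 are unnamed here. A gene was represented by its brightest probe on average across the 8 arrays. Genes were sorted by 33 lists of 1117 genes. The members and lists were chosen with earlier results of these data known. Genes named follow a rule: the 12 largest separations each way, up to 6 per list, those at the limit and a fixed set of 28 genes, of which Fasn, Plin1, Lep, Ucp1, Dlk1, Pdgfra, Col1a1, Pecam1, Actb and Gapdh were no members; other genes are examples chosen after their values were seen. Counts were made in Python 3.11.15 with pandas 2.3.3, and the rule was tested on simulated data. Alternatives changed the minimum, the separation, the choice of probe, the pools and the centring.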

Additional observations from a re-analysis of the deposited data

How the results depend on the processing

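The count of higher genes stayed within 1.5 times of 87 with no intensity minimum (87), a minimum of 8.5 (72), a separation of 1.5 log2 (60), every probe counted (107), the median of a gene's probes (81), centred arrays (87), and e16.5 or e17.5 in place of e18.5 and P2 for the e15.5 pool (86 and 88). It was 21 with 7.5 required on all 4 arrays, which removes genes near the floor at e18.5 or P2, 152 at a separation of 0.5 log2 and 193 by the difference of the side means. The 7 lower genes became 1 at 1.5 log2, 68 at 0.5 log2, 204 by the side means and 1 with e16.5 as the neighbour of e15.5. Leaving out each pool in turn gave 101 to 335 higher and 15 to 399 lower genes, the highest of each without P0. Muscle genes among the higher ones then numbered 43 to 56 and epidermal genes 25 to 40. With 7.5 on all 4 arrays they were 11 and 4, at 1.5 log2 33 and 15, and by the side means 54 and 44. Fewer pools make the rule easier to meet. Signal near the floor, where 44 of the 87 had both neighbours, limits what separations can show. No paired analysis was possible because each stage has 1 pool and the labels give no replicate numbers.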
